A study of Mus musculus with 16 samples.

Results

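The coagulation and fibrinolysis factors were followed as a set of 33 named genes in primary mouse hepatocytes treated with SQ1 or pravastatin. The set was defined by a list of gene names, and its probes were found through the RefSeq accession that each probe carries. It makes up 33 of the 20659 genes named on the array, and 32 of its members were among the 15053 genes that were bright enough to be tested. Plau, the gene of urokinase, was the member left out. By role, 16 members encode procoagulant proteins, 8 encode inhibitors of coagulation, 6 belong to the fibrinolytic system, and 3 encode plasma proteins of several roles.

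Coagulation starts when tissue factor meets factor VII, or through the contact system, and runs through a chain of proteases that ends with thrombin cutting fibrinogen into fibrin. Serpins, the protein C system and tissue factor pathway inhibitor hold the chain in check, and plasmin dissolves the clot. The hepatocyte is the main source of most of these plasma proteins, whereas factor VIII, thrombomodulin, tissue-type plasminogen activator and part of the tissue factor pathway inhibitor come largely from endothelium, and the A subunit of factor XIII from platelets and macrophages. Several of the clotting proteases and of their inhibitors need vitamin K for the carboxylation of glutamate residues before they can bind calcium.

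The hepatocytes came from male C57Bl/J mice and were kept in Williams Medium E. From 48 h after plating they were left untreated or treated for a further 48 h, either with pravastatin at 30 µM or with SQ1 at 100 µM. The compound SQ1, or squalestatin 1, blocks squalene synthase, the enzyme that commits the pathway to sterols, and its dose is given as labelled although the unit is uncertain. Pravastatin inhibits HMG-CoA reductase, an early step of the same pathway. Each of the 16 two-colour arrays carried RNA of treated cells in one dye and RNA of untreated cells in the other, 8 arrays for each drug, with the dyes swapped on 4 of the 8. The labels call the cultures biological replicates and give neither the age of the mice nor the number of mice per culture. Same-numbered arrays of both drugs carry control RNA of the same culture number in the array names. The drug comparisons may therefore share controls and are set side by side here, not correlated. The labelled doses differ, so a difference between the drugs is not one at a matched dose.

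Over all genes, the log2 ratios of any pair of pravastatin arrays correlated at 0.79 to 0.95 and those of any pair of SQ1 arrays at 0.07 to 0.78. The hepatocyte label was borne by all 10 hepatocyte markers, which were well above background in all 16 control channels. Their summed log2 level was 20.18 to 21.001 in control channels, 20.10 to 20.76 with SQ1 and 19.10 to 20.24 with pravastatin. All 10 of them fell with pravastatin, with a median log2 fold change of -1.40, and 4 fell with SQ1, with a median of -0.14. Markers of Kupffer cells, sinusoidal endothelium, stellate cells and cholangiocytes were present too, with 11, 10, 9 and 4 markers above background in all control channels. Summed Kupffer cell markers ran at 13.87 to 14.83 in controls, 13.70 to 14.64 with SQ1 and 13.36 to 14.46 with pravastatin. Of the 11 tested, 6 fell with SQ1 and 9 with pravastatin. By the call defined below, 16.5% of all genes fell with SQ1 and 35.8% with pravastatin. Summed stellate cell markers ran at 16.14 to 16.91 in controls, 16.05 to 16.69 with SQ1 and 16.20 to 16.74 with pravastatin. For cholangiocyte markers these were 17.15 to 18.45, 16.78 to 17.82 and 17.66 to 18.005. In such bulk cultures, fewer cells of a type and less RNA per cell cannot be told apart, and the part of cell composition in the results below was not tested.

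With pravastatin, 25 of the 32 tested members fell and 3 rose, with a median log2 fold change of -1.18 for the members against -0.01 for all genes. Of all genes tested, 66.7% were called with pravastatin (30.9% higher and 35.8% lower). A call means an adjusted p under 0.05 in the limma fit, after Benjamini-Hochberg adjustment over the 15053 genes, and a value after ± is the standard error of the fit (n = 8 arrays per drug). A total of 17 members fell by 2-fold or more, which held for 4.01% of all genes. A fall of 4-fold or more was seen in 9 members and in 0.95% of all genes. The members that rose were Thbd, Plaur and Cpb2. F3, F13a1, Pros1 and Plat did not pass the test. The fall was seen on 8 of 8 arrays for 24 members. For 23 of the 32, among them Plaur, which rose, the control and treated channels did not overlap. Neither count was made over all genes.

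SQ1 gave smaller changes in the same set. Its calls were 20 members lower and 2 higher, with a median log2 fold change of -0.34 for the members against -0.002 for all genes. Over all genes, 32.3% were called with SQ1, 15.7% higher and 16.5% lower. Only Hrg and Fgg fell by 2-fold or more, which held for 0.26% of all genes. For 16 members the fall was seen on 8 of 8 arrays, and control and treated channels did not overlap for 5 of 32. Here too, neither count was made over all genes. The calls over all genes depended on the scaling and on whether the slide was a block. Centring each array on its median in place of loess gave 1473 genes higher and 598 lower with SQ1 (2369 and 2491 with loess), and 4374 higher and 2797 lower with pravastatin (4648 and 5393 with loess). With Agilent's own log ratio these were 6087 higher and 4624 lower with pravastatin. With loess and the slide as a random block (block correlation 0.27), 1221 genes were higher and 1322 lower with SQ1. With pravastatin that block gave 3730 higher and 4532 lower. Among the members, median centring left 9 lower and 0 higher with SQ1, and 23 lower and 4 higher with pravastatin. F10, F5, F2, Serpind1, Proc, Proz, Serpinf2, Vtn, Klkb1, Plaur and Cpb2 were the lower calls lost with SQ1, all still below 0. With the slide as a random block, F2, F12, F13a1, Plaur and Proz lost their SQ1 calls (adjusted p 0.0974 to 0.203), and Tfpi and F11 their pravastatin calls (adjusted p = 0.169 and 0.0597).

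**Figure D1:**
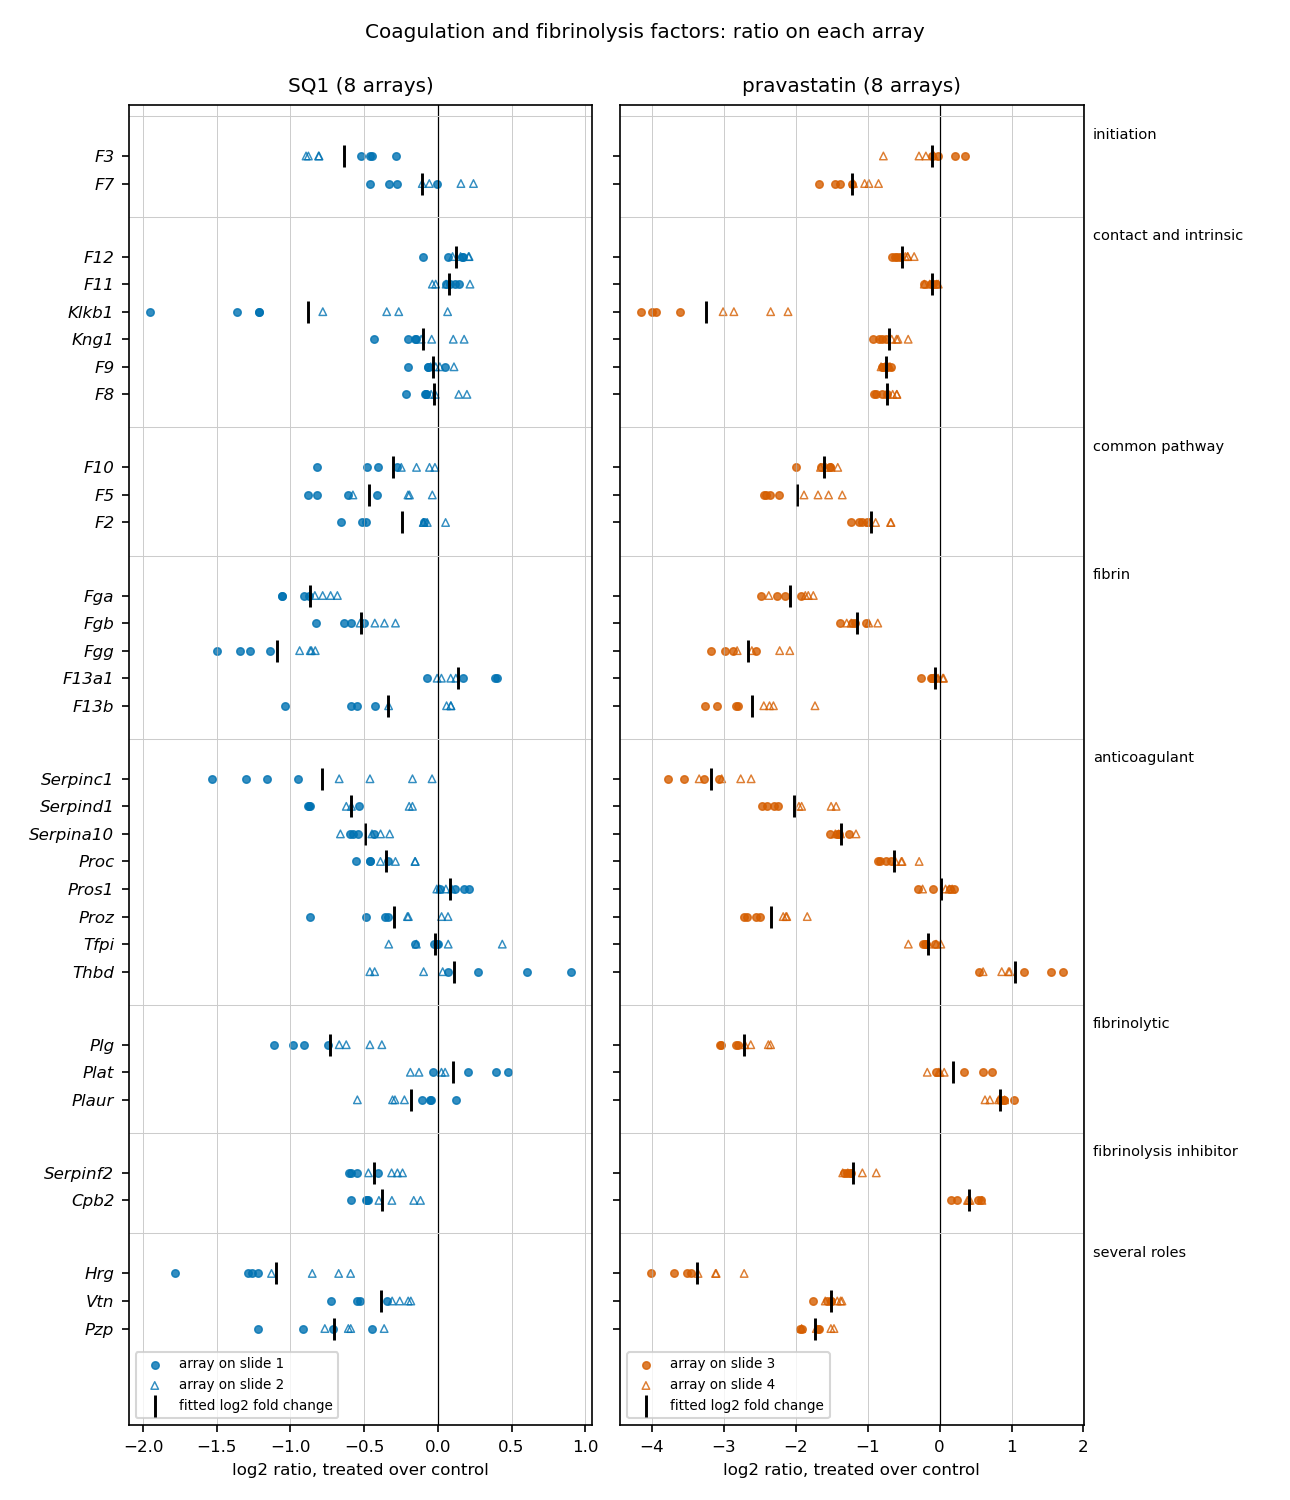
Log2 ratio of treated over control RNA on each of the 8 SQ1 and 8 pravastatin arrays for the 32 tested members, grouped by role, with the dye effect removed. Filled circles and open triangles are the arrays of each drug's 2 slides and the black bar is the fitted log2 fold change. The horizontal scales of the panels differ. With pravastatin 25 members lie below 0 and past the threshold, Thbd, Plaur and Cpb2 lie above it, and with SQ1 most values lie between -1 and 0. F11 turned to 0.0499 with pravastatin after median centring.

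The 3 chains of fibrinogen, the precursor of fibrin, fell together with both drugs. For Fgg, the gamma chain, log2 intensities were 17.61 to 18.75 (median 18.25) in the control channels of the pravastatin arrays and 14.82 to 16.19 (median 15.57) in the treated channels. Its log2 ratios ran from -3.18 to -2.08 with a median of -2.71, so that every array showed a fall and the channels did not overlap. The fitted log2 fold change was -2.67 ± 0.11, a 6.35-fold fall (adjusted p = 4.90e-12). With SQ1 the ratios of Fgg ran from -1.50 to -0.83 with a median of -1.04, again with no overlap of control and treated channels, and the fit gave -1.09 ± 0.11 or 2.13-fold lower (adjusted p = 1.42e-06).

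Fga, the alpha chain, had log2 intensities of 14.79 to 15.58 (median 15.19) in the controls of the pravastatin arrays and 12.91 to 13.23 (median 13.16) with the drug, which do not overlap. It fell by 2.08 ± 0.07 on the log2 scale (4.23-fold, adjusted p = 1.59e-12). With SQ1 its ratios ran from -1.06 to -0.68 with a median of -0.85, and the fit gave -0.86 ± 0.07 (adjusted p = 2.87e-07). Fgb, the beta chain, moved least of the 3. Its ratios ran from -1.39 to -0.86 with a median of -1.19 with pravastatin, with a fitted value of -1.15 ± 0.06 (2.21-fold lower, adjusted p = 7.31e-11). With SQ1 they ran from -0.82 to -0.29 with a median of -0.52 with a fitted value of -0.52 ± 0.06 (adjusted p = 6.81e-06), and control and treated channels overlapped. Within the arrays, the ratio of Fgg lay below that of Fga on 8 of 8 arrays with each drug, by -0.84 to -0.33 (median -0.62) with pravastatin and -0.44 to -0.02 (median -0.19) with SQ1. Against Fgb the difference was -1.81 to -1.10 (median -1.53) and -0.70 to -0.41 (median -0.59), also on 8 of 8 arrays each.

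The 3 fibrinogen genes neighbour each other on chromosome 3, and the 250 bases before their starts are shown because the genes fell together. The sequences are RefSeq's, from build GRCm38.p6, read 5′ to 3′ on the gene's strand, and capitals mark the motif matches described further on. The window of Fgg is chr3:83007474-83007723 on the plus strand, that of Fga is chr3:83025903-83026152 on the plus strand, and that of Fgb is chr3:83049864-83050113 on the minus strand.
Fgg: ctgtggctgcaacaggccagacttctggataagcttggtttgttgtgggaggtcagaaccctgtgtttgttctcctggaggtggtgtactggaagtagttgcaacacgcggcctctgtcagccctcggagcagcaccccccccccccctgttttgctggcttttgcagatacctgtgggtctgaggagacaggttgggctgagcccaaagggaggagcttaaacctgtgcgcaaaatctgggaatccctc
Fga: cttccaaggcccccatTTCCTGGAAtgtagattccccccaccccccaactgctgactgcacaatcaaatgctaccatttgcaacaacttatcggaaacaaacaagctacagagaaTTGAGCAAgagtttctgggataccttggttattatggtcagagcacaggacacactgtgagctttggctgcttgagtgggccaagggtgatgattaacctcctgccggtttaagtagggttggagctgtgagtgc
Fgb: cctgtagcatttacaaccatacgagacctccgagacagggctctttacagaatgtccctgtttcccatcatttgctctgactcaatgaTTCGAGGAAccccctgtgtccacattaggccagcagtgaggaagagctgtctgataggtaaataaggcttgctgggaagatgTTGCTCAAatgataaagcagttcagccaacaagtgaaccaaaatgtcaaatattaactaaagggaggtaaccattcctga

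In Fga the capitals are, in order from the left, a STAT motif and a C/EBP motif. Fgb likewise carried a STAT motif and a C/EBP motif. None of the motifs searched was in the window of Fgg, the chain with the largest fall. The neighbours outside the fibrinogen cluster behaved otherwise. Plrg1, next to Fgb, was at -0.01 ± 0.03 with pravastatin and -0.0042 ± 0.03 with SQ1, and neither passed the test. Lrat, a gene of retinol storage next to Fgg, was at -0.10 ± 0.10 with pravastatin (adjusted p = 0.394) and rose by 0.95 ± 0.10 with SQ1 (adjusted p = 3.88e-06).

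Factor XIII cross-links fibrin, and its subunits differed. F13b, the carrier subunit made by hepatocytes, had log2 intensities of 11.55 to 13.06 (median 12.53) in the controls and 9.25 to 10.27 (median 9.81) with pravastatin, and fell by 2.61 ± 0.15 (6.09-fold, adjusted p = 2.28e-10). With SQ1 its value was -0.34 ± 0.15 (adjusted p = 0.0947), with ratios from -1.04 to 0.09 with a median of -0.38. On slide 1 alone F13b was called lower with SQ1 (-0.65, adjusted p = 5.30e-04). F13a1, the catalytic subunit, was near background. Its probe was well above background in 6 of 16 control channels, 4 of 8 SQ1 channels and 1 of 8 pravastatin channels. Its value was -0.07 ± 0.05 with pravastatin, which did not pass the test, and 0.14 ± 0.05 with SQ1 (adjusted p = 0.0415). Agilent's log ratio gave larger values, -0.53 with pravastatin (adjusted p = 0.0492) and 0.68 with SQ1. On the array of SQ1 replicate 2 both channels of F13a1 stood apart, at 9.85 for the control and 9.79 for the treated RNA, against medians of 6.37 and 6.51 over the 8 arrays. The SQ1 call was lost with the replicate number as a block (adjusted p = 0.0917) and when any one of SQ1 replicates 1, 3, 5, 6 and 8 or pravastatin replicate 3 was left out (log2 fold change 0.10 to 0.15, adjusted p 0.0508 to 0.139). Of the 6 platelet markers, Ppbp, Gp1ba and Gp9 were not well above background in any control channel.

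**Figure D2:**
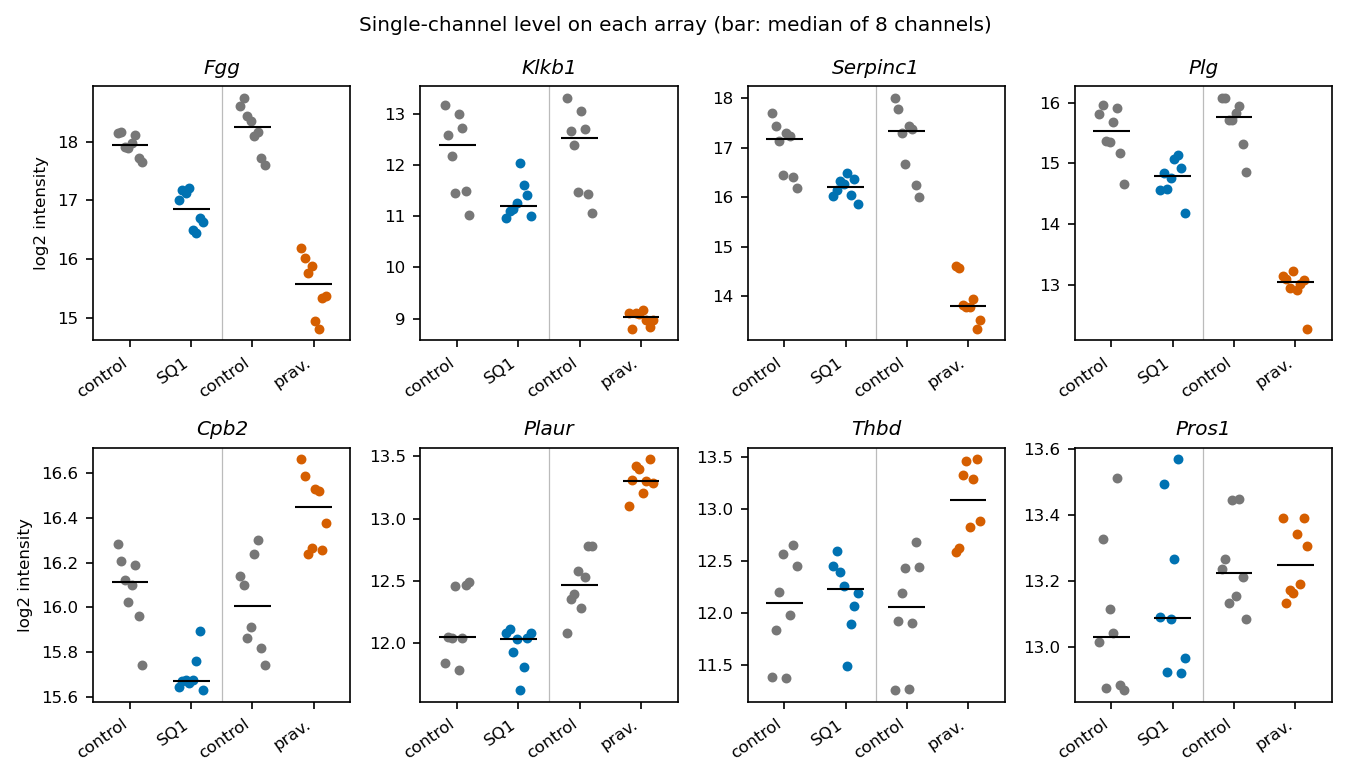
Log2 single-channel intensity of 8 members, after loess within and quantile scaling between arrays, in the control and treated channels of the SQ1 arrays (left of the grey line) and the pravastatin arrays (right of it). Each point is 1 array and each bar the median of 8 channels. Vertical scales differ between panels and levels of different genes are not comparable. Fgg, Klkb1, Serpinc1 and Plg with pravastatin lie below all their controls, Plaur lies above them, and Pros1 overlaps throughout.

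The common pathway, in which factor X and its cofactor factor V turn prothrombin into thrombin, fell in all 3 of its members with pravastatin, and with SQ1 over both slides together. On slide 2 alone none of the 3 passed the test with SQ1, at -0.12 for F10, -0.05 for F2 and -0.25 for F5 (adjusted p = 0.315, 0.625 and 0.0518), and with the scan day as a block F10 and F2 did not pass (adjusted p = 0.0676 and 0.0777). For F5 the log2 intensities were 12.69 to 13.95 (median 13.68) in the controls and 11.27 to 11.63 (median 11.49) with pravastatin, without overlap. F5 fell by 1.99 ± 0.12 (3.97-fold, adjusted p = 6.29e-10) with pravastatin, and its SQ1 value was -0.47 ± 0.12 (adjusted p = 0.0082) with ratios from -0.88 to -0.04 with a median of -0.50. F10 had ratios from -1.99 to -1.42 with a median of -1.56 with pravastatin and a fitted value of -1.61 ± 0.08 (3.05-fold lower, adjusted p = 2.32e-11). A second F10 probe gave -0.37 with pravastatin, in the same direction but far smaller, and which of the probes better represents the gene was not tested. With SQ1 F10 was at -0.31 ± 0.08 (adjusted p = 0.00478). F2, prothrombin, had ratios from -1.23 to -0.68 with a median of -0.995 with pravastatin and fell by 0.96 ± 0.08 (1.94-fold, adjusted p = 1.67e-08). Its SQ1 value was -0.25 ± 0.08 (adjusted p = 0.0238), and the call was lost without SQ1 replicate 1, 5 or 6 (log2 fold change -0.21 to -0.18, adjusted p 0.0708 to 0.0826).

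The genes that start coagulation went separate ways. F7, the protease, fell by 1.23 ± 0.09 with pravastatin (2.34-fold, adjusted p = 2.62e-09), with log2 intensities of 9.23 to 10.45 (median 9.99) in the controls and 8.16 to 9.11 (median 8.67) in the treated channels. A second F7 probe gave -1.22 with pravastatin. With SQ1, F7 was at -0.10 ± 0.09 (adjusted p = 0.382). F3, tissue factor, the membrane cofactor of factor VII, showed the reverse order of the drugs. With SQ1 its log2 intensities were 13.28 to 14.18 (median 13.61) in the controls and 12.71 to 13.28 (median 13.04) in the treated channels, without overlap. The fit gave -0.64 ± 0.10 with SQ1 (1.55-fold lower, adjusted p = 1.23e-04) and -0.11 ± 0.10 with pravastatin (adjusted p = 0.325), for which ratios ran from -0.78 to 0.35 with a median of -0.09. By slide, F3 with pravastatin was at 0.11 on slide 3 and -0.33 on slide 4, where it was called lower (adjusted p = 0.00495). The difference between the drugs was -0.52 ± 0.14 (adjusted p = 0.00442).

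All 6 genes of the contact and intrinsic pathway fell with pravastatin, over a wide range, and 1 fell with SQ1. Of all genes, 35.8% fell with pravastatin and 16.5% with SQ1, and 1 of 6 lies near the SQ1 share. Klkb1, plasma prekallikrein, had the largest fall of the 6 pathway genes. Its log2 intensities were 11.05 to 13.32 (median 12.53) in the control channels and 8.80 to 9.17 (median 9.03) with pravastatin, so that the treated channels lay close together and far below a wide spread of controls. Pravastatin ratios of Klkb1 ran from -4.15 to -2.11 with a median of -3.31, and the fit gave -3.25 ± 0.24 (9.54-fold lower, adjusted p = 4.94e-09). With SQ1 they ran from -1.95 to 0.07 with a median of -0.996, 7 of 8 below 0, and the fit gave -0.88 ± 0.24 (adjusted p = 0.00985). That SQ1 call was lost with median centring, at -0.77 (adjusted p = 0.0627).

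F11, the factor XI gene and the chromosomal neighbour of Klkb1, hardly moved. Its log2 intensities were 13.94 to 14.28 (median 13.998) in the controls and 13.77 to 14.19 (median 13.89) with pravastatin, which overlap. The fitted value was -0.11 ± 0.03 with pravastatin (adjusted p = 0.00511). It turned to 0.0499 (adjusted p = 0.687) with median centring and did not pass with Agilent's log ratio (-0.02, adjusted p = 0.4997). With SQ1 it was 0.08 ± 0.03 (adjusted p = 0.0699), and it was called higher with Agilent's log ratio (0.09, adjusted p = 0.0354) and without SQ1 replicate 3 (0.10, adjusted p = 0.0395). On the same array, the ratio of Klkb1 minus that of F11 was -4.06 to -2.09 (median -3.18) with pravastatin, below 0 on 8 of 8 arrays, and -2.01 to 0.01 (median -1.02) with SQ1, below 0 on 7 of 8. The windows before both starts, on the minus strand of chromosome 8 in build GRCm38.p6, are shown because these neighbours differed. They are chr8:45262032-45262281 for F11 and chr8:45294836-45295085 for Klkb1, and each held 1 C/EBP motif, in capitals.
F11: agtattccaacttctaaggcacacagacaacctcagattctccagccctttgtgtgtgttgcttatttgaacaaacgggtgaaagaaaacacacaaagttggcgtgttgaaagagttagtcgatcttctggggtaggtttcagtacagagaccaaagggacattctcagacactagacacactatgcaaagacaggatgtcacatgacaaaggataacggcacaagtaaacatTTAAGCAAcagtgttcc
Klkb1: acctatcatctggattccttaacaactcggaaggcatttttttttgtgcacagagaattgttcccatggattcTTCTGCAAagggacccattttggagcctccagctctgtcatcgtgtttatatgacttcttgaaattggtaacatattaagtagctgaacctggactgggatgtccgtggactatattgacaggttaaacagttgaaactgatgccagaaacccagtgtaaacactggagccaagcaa

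F9 and F8 encode the protease and the cofactor of the complex that activates factor X. F9 had a narrow spread, with pravastatin ratios from -0.81 to -0.67 with a median of -0.75, and fell by 0.75 ± 0.03 (1.68-fold, adjusted p = 5.87e-12). F8 fell by 0.74 ± 0.05 (1.67-fold, adjusted p = 5.19e-10) with ratios from -0.91 to -0.59 with a median of -0.73, and a second, dimmer F8 probe gave -0.18. With SQ1 neither passed, at -0.03 ± 0.03 for F9 and -0.02 ± 0.05 for F8. Kng1, kininogen, the cofactor of prekallikrein and source of bradykinin, had pravastatin ratios from -0.93 to -0.44 with a median of -0.71 and was at -0.70 ± 0.06 (1.62-fold lower, adjusted p = 2.75e-08). A second Kng1 probe gave -1.07 with pravastatin. Kng1 was at -0.10 ± 0.06 with SQ1 (adjusted p = 0.215). Its near-identical copy Kng2 could share signal with its probes, so the Kng1 values are uncertain. F12, the contact factor that activates prekallikrein and factor XI, was at -0.52 ± 0.04 with pravastatin (adjusted p = 4.53e-09) and at 0.12 ± 0.04 with SQ1 (adjusted p = 0.0209). The SQ1 call of F12 was lost without SQ1 replicate 2, 3, 6 or 8 (log2 fold change 0.11 to 0.12, adjusted p 0.0509 to 0.061).

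Among the 8 inhibitors of coagulation, 6 fell and 1 rose with pravastatin, and 5 fell with SQ1 (all genes: 35.8%, 30.9% and 16.5%). Serpinc1, antithrombin, the main serpin inhibitor of thrombin and factor Xa, fell most. Log2 intensities of Serpinc1 were 16.003 to 18.01 (median 17.34) in controls and 13.34 to 14.61 (median 13.81) with pravastatin, with no overlap. Its pravastatin ratios ran from -3.77 to -2.62 with a median of -3.17, and the fit gave -3.18 ± 0.16 (9.06-fold lower, adjusted p = 3.88e-11). With SQ1 they ran from -1.53 to -0.04 with a median of -0.81, all below 0, with a fitted value of -0.79 ± 0.16 (1.72-fold lower, adjusted p = 0.00102).

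Proz, protein Z, and Serpina10, the serpin for which protein Z is the cofactor against factor Xa, both fell with pravastatin. For Proz, log2 intensities were 9.75 to 11.12 (median 10.63) in the controls and 7.72 to 8.51 (median 8.27) with the drug, and it fell by 2.34 ± 0.10 (5.07-fold, adjusted p = 1.17e-11). With SQ1 Proz was at -0.30 ± 0.10 (adjusted p = 0.036), a call lost without SQ1 replicate 1, 2, 3, 5, 6 or 8 (log2 fold change -0.31 to -0.21, adjusted p 0.0516 to 0.116). Serpina10 had a narrow spread, with ratios from -1.53 to -1.16 with a median of -1.40 for pravastatin and from -0.66 to -0.33 with a median of -0.50 for SQ1. Control and treated channels of Serpina10 did not overlap with either drug. It was at -1.38 ± 0.04 with pravastatin (adjusted p = 3.13e-13) and -0.50 ± 0.04 with SQ1 (adjusted p = 2.37e-07), and a second probe gave -1.45 and -0.47. Serpind1, heparin cofactor II, another serpin inhibitor of thrombin, had pravastatin ratios from -2.47 to -1.44 with a median of -2.10 and fell by 2.03 ± 0.11 (4.09-fold, adjusted p = 2.09e-10). Its SQ1 value was -0.59 ± 0.11 (adjusted p = 8.83e-04).

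The protein C system split by component. Proc, protein C, the protease that inactivates factors V and VIII, fell by 0.63 ± 0.06 with pravastatin and by 0.35 ± 0.06 with SQ1 (adjusted p = 5.85e-08 and 2.27e-04). Pros1, its cofactor protein S, was at 0.01 ± 0.05 with pravastatin and 0.08 ± 0.05 with SQ1, and neither passed the test. The 95% interval of Pros1 was -0.10 to 0.12 with pravastatin and -0.03 to 0.19 with SQ1. Thbd, thrombomodulin, the membrane receptor that turns thrombin into an activator of protein C, had log2 intensities of 11.26 to 12.68 (median 12.06) in the controls and 12.59 to 13.48 (median 13.09) with pravastatin, which overlap at their edges. Its ratios ran from 0.55 to 1.71 with a median of 0.97, above 0 on 8 of 8 arrays, and the fit gave 1.05 ± 0.15 (2.07-fold higher, adjusted p = 8.44e-06). With SQ1 the ratios of Thbd ran from -0.46 to 0.91 with a median of 0.05, on both sides of 0, with a fitted value of 0.11 ± 0.15 (adjusted p = 0.606). On slide 1 alone Thbd was called higher with SQ1 (0.46, adjusted p = 0.032). Procr, the endothelial protein C receptor and no member of the set, rose by 0.30 ± 0.06 with pravastatin (adjusted p = 3.82e-04).

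Thrombomodulin is best known from endothelium, and in the main fit the 10 endothelial markers gave no single direction beside it. With pravastatin 4 of them rose and 4 fell, near the shares of all genes (30.9% higher and 35.8% lower). Their median was 0.03, and their summed log2 level was 13.80 to 14.31 against 13.93 to 14.33 in controls. Stab2, a scavenger receptor of sinusoidal endothelium, fell by 0.59 ± 0.06, and Clec4g, a lectin of the same cells, rose by 0.27 ± 0.11 (adjusted p = 9.71e-08 and 0.0345). With the slide as a block, 0 of the markers rose and 3 fell, so the call of Clec4g was lost. Their part in the rise of Thbd was not tested. Tfpi, the inhibitor of the factor VII and tissue factor complex, was at -0.16 ± 0.06 with pravastatin (adjusted p = 0.0308) and -0.02 ± 0.06 with SQ1 (adjusted p = 0.848). The pravastatin call of Tfpi was lost without pravastatin replicate 1, 2, 3, 6 or 7 (log2 fold change -0.17 to -0.12, adjusted p 0.051 to 0.106), and 2 other probes gave -0.19 and -0.09.

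In the fibrinolytic system, 5 of the 6 members were tested. With pravastatin 2 fell and 2 rose, and with SQ1 4 fell and none rose. These pravastatin counts, 2 of 5 each way, lie near the shares of all genes (35.8% lower and 30.9% higher). With SQ1, 16.5% of all genes were lower and 15.7% higher. Plg, plasminogen, the zymogen of plasmin, had log2 intensities of 14.85 to 16.08 (median 15.77) in the controls and 12.28 to 13.23 (median 13.05) with pravastatin, without overlap. Plg ratios ran from -3.06 to -2.35 with a median of -2.76 with pravastatin and from -1.11 to -0.38 with a median of -0.71 with SQ1. It fell by 2.73 ± 0.09 with pravastatin (6.62-fold, adjusted p = 4.83e-13) and by 0.73 ± 0.09 with SQ1 (1.66-fold, adjusted p = 1.04e-05).

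Serpinf2, alpha-2-antiplasmin, the serpin that inhibits plasmin, fell with both drugs. Its pravastatin ratios ran from -1.35 to -0.88 with a median of -1.26 and its fitted values were -1.21 ± 0.05 with pravastatin (2.31-fold lower, adjusted p = 1.07e-11) and -0.43 ± 0.05 with SQ1 (adjusted p = 1.35e-05). Cpb2, the thrombin-activatable fibrinolysis inhibitor, a carboxypeptidase that trims fibrin and slows its breakdown, was called in opposite directions. Log2 intensities of Cpb2 were 15.74 to 16.30 (median 16.01) in the controls and 16.24 to 16.66 (median 16.45) in the treated channels of the pravastatin arrays, and 15.74 to 16.28 (median 16.11) and 15.63 to 15.89 (median 15.67) on the SQ1 arrays. Channels overlapped in both, whereas the ratio lay above 0 on 8 of 8 pravastatin arrays and below 0 on 8 of 8 SQ1 arrays. The fit gave 0.41 ± 0.06 with pravastatin (adjusted p = 4.66e-06), -0.38 ± 0.06 with SQ1 (adjusted p = 7.55e-05) and -0.79 ± 0.08 for SQ1 minus pravastatin (adjusted p = 4.20e-07). Median centring ended the SQ1 call of Cpb2 but not its direction.

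Plaur, the cell surface receptor of urokinase, rose with pravastatin. Log2 intensities were 12.09 to 12.78 (median 12.47) in the controls and 13.10 to 13.48 (median 13.30) with the drug, without overlap, and ratios ran from 0.63 to 1.04 with a median of 0.86. The fit gave 0.84 ± 0.06 (1.79-fold higher, adjusted p = 2.52e-09). With SQ1 Plaur was at -0.18 ± 0.06 (adjusted p = 0.0249), below 0 on 7 of 8 arrays, a call lost without SQ1 replicate 3, 4, 7 or 8 (log2 fold change -0.18 to -0.13, adjusted p 0.055 to 0.0778). Its ligand gene Plau was not well above background in any of the 32 channels, with log2 intensities of 6.15 to 6.36 in controls, 6.03 to 6.37 with SQ1 and 6.08 to 6.30 with pravastatin, so no ratio is given. Plat, tissue-type plasminogen activator, was at 0.19 ± 0.10 with pravastatin and 0.10 ± 0.10 with SQ1, with adjusted p of 0.0944 and 0.464. Plat was called higher with pravastatin after median centring (0.31, adjusted p = 0.0221), with Agilent's log ratio (0.29, adjusted p = 0.0366), on slide 3 alone (0.41, adjusted p = 0.00207) and without pravastatin replicate 8 (0.24, adjusted p = 0.0414).

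The plasma proteins of several roles fell with both drugs. Hrg, histidine-rich glycoprotein, which binds plasminogen, heparin and fibrinogen, had the largest fitted fall of the set with each drug, within its standard error of Klkb1 with pravastatin and of Fgg with SQ1. Its log2 intensities were 14.42 to 16.26 (median 15.70) in the controls and 11.53 to 12.53 (median 12.23) with pravastatin. Ratios of Hrg ran from -4.02 to -2.72 with a median of -3.41 with pravastatin and from -1.78 to -0.59 with a median of -1.18 with SQ1, all below 0. The fit gave -3.37 ± 0.13 with pravastatin (10.4-fold lower, adjusted p = 3.35e-12) and -1.10 ± 0.13 with SQ1 (2.14-fold lower, adjusted p = 1.01e-05). Pzp, a plasma inhibitor that traps proteases, had ratios from -1.94 to -1.47 with a median of -1.70 with pravastatin and from -1.22 to -0.36 with a median of -0.66 with SQ1, and its channels did not overlap with either drug. It fell by 1.73 ± 0.08 and 0.70 ± 0.08 (adjusted p = 1.61e-11 and 5.47e-06), and its probe could share signal with the related A2m. Vtn, vitronectin, an adhesion protein of plasma and matrix, fell by 1.51 ± 0.06 and 0.39 ± 0.06 (adjusted p = 2.78e-12 and 7.80e-05).

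The drugs were then compared directly as SQ1 minus pravastatin at the labelled doses. SQ1 was measured on slides 1 and 2 only and pravastatin on slides 3 and 4 only. A slide's effect on the ratios therefore cannot be told apart from a difference between the drugs. Of the 32 members, 25 were higher with SQ1 and 4 lower, against 53.1% of all genes called (29.3% higher and 23.8% lower). Over all genes, Agilent's own log ratio gave 3919 higher and 4851 lower, against 4407 and 3589 with loess, while the members' split was 25 and 4 with both. The differences reached 2.39 ± 0.22 for Serpinc1, 2.37 ± 0.34 for Klkb1, 2.27 ± 0.18 for Hrg, and 2.27 ± 0.21 for F13b. The members lower with SQ1 were Plaur at -1.02 ± 0.08, Thbd at -0.94 ± 0.21, Cpb2 and F3. Pros1, Tfpi and Plat did not pass, with 95% intervals of -0.09 to 0.23, -0.05 to 0.34 and -0.38 to 0.20. With the replicate number as a block, Tfpi passed at 0.14 (adjusted p = 0.0495). By both calls side by side, 17 members fell with each drug, 7 fell with pravastatin and did not pass with SQ1, and Plaur and Cpb2 fell with SQ1 and rose with pravastatin. The SQ1 call of Plaur was lost on slide 1 alone (-0.02, adjusted p = 0.804). Among the 7, F7, Kng1 and F13b were called lower with SQ1 on slide 1 alone.

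Each drug was measured on 2 slides, and the slides also hold different cultures (numbers 1 to 4 and 5 to 8), so slide and culture cannot be told apart. Slide 3 was also scanned on another day than slides 1, 2 and 4, so for pravastatin the scan day cannot be told apart from them either. The effect differed between the slides for 13 of the 32 members with SQ1 and for 15 with pravastatin. No share over all genes is set beside these counts, so they are not read as particular to the members. With SQ1 the median of the members was -0.50 on slide 1 and -0.24 on slide 2. With pravastatin it was -1.24 on slide 3 and -1.06 on slide 4, which hold the same culture numbers as slides 1 and 2. The SQ1 value of Klkb1 was -1.43 for slide 1 against -0.33 for slide 2 (difference between slides, adjusted p = 0.00596), and that of Serpinc1 was -1.24 against -0.34 (adjusted p = 0.007). On slide 2 alone neither passed the test for SQ1, nor did F10, F5, F2, Proz and F13a1. F3 went the other way, at -0.43 and -0.85 (adjusted p = 0.044). On slide 1 alone F7 and Kng1 were called lower with SQ1 (-0.27 and -0.23, adjusted p = 0.0174 and 0.0042). So was F13b (-0.65, adjusted p = 5.30e-04), and Thbd was called higher (0.46, adjusted p = 0.032). Plaur (-0.02, adjusted p = 0.804) and F12 (0.08, adjusted p = 0.186) did not pass with SQ1 on slide 1.

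The levels behind these ratios were read by slide. For Klkb1 the control channels were at 12.58 to 13.18 on slide 1 and 11.01 to 12.18 on slide 2, and at 12.67 to 13.32 and 11.05 to 12.38 on slides 3 and 4, without overlap. The treated channels of Klkb1 overlapped between slides, at 10.96 to 12.04 and 11.01 to 11.41 with SQ1 and 8.80 to 9.17 and 8.84 to 9.11 with pravastatin. F5 was also higher in the controls of slide 1, although the ranges of the slides overlapped, with control medians of 13.81 and 13.11 and SQ1 medians of 13.05 and 12.91. F3 control medians were lower on slide 1, at 13.50, than on slide 2, at 13.88, with SQ1 medians of 13.09 and 13.003. What made the cultures or slides differ was not tested.

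**Figure D3:**
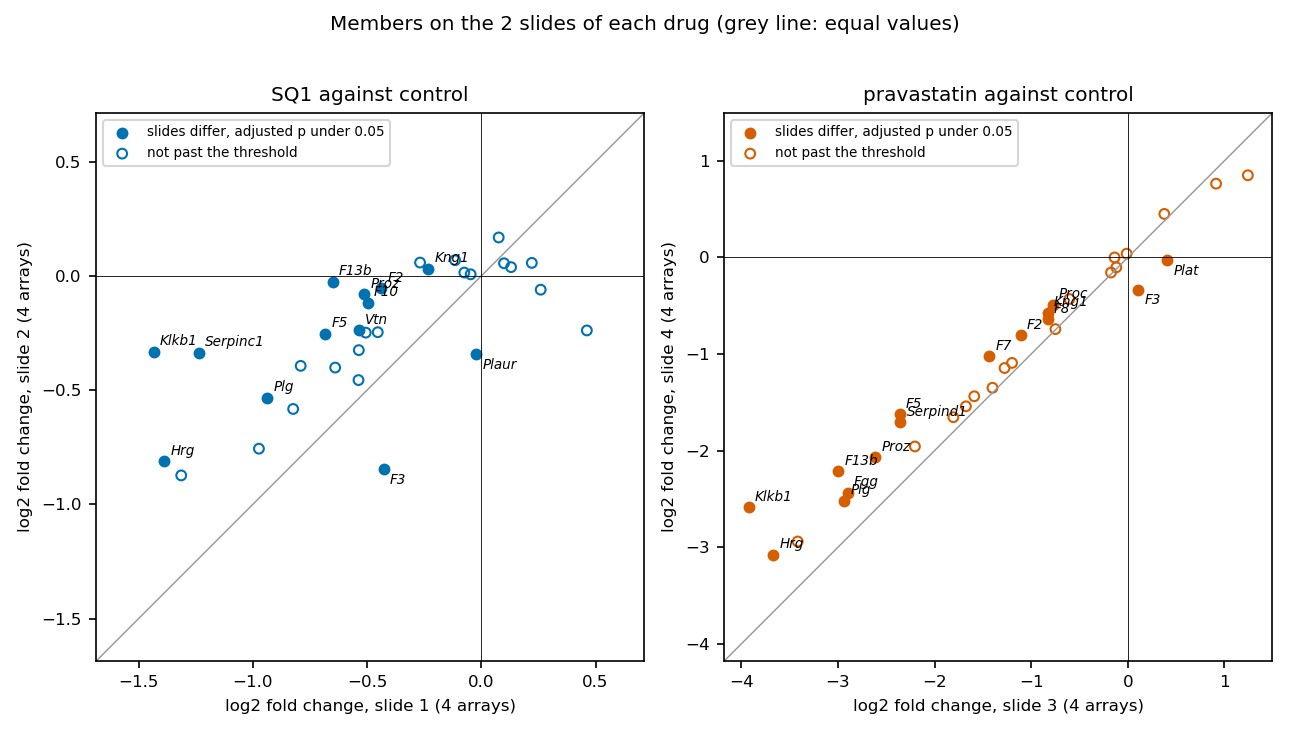
Log2 fold change of the 32 tested members on one slide of a drug (horizontal axis) against the other slide of that drug (vertical axis), 4 arrays each, for SQ1 (left) and pravastatin (right). Filled points mark members whose effect differed between the slides at an adjusted p under 0.05, and the grey line marks equal values. Of the filled points, 11 of 13 (SQ1) and 13 of 15 (pravastatin) lie above the line, with a lower value on slides 1 and 3, and F3 lies below it for both drugs.

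Members that neighbour each other on a chromosome, in the order of RefSeq's protein-coding genes, were compared within these clusters. F7, F10 and Proz lie side by side and all fell with pravastatin, with log2 fold changes of -1.23, -1.61 and -2.34 in that order of position. The order rests on the brighter F10 probe, since the second one, at -0.37, lies above F7. The genes next to them were at -0.0032 ± 0.04 for Mcf2l and 0.20 ± 0.03 for Pcid2. On the same array Proz lay below F7 on 8 of 8 pravastatin arrays, by -1.34 to -0.86 (median -1.09), and the brighter F10 probe below F7 on 7 of 8. Hrg and Kng1 are separated by Kng2 alone and preceded by Ahsg and Fetub, other plasma protein genes of the liver. With pravastatin these were at -1.35 ± 0.06 for Ahsg, -0.74 ± 0.11 for Fetub, -3.37 ± 0.13 for Hrg, -0.74 ± 0.06 for Kng2 and -0.70 ± 0.06 for Kng1. Hrg lay below Kng1 on 8 of 8 arrays with each drug.

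**Figure D4:**
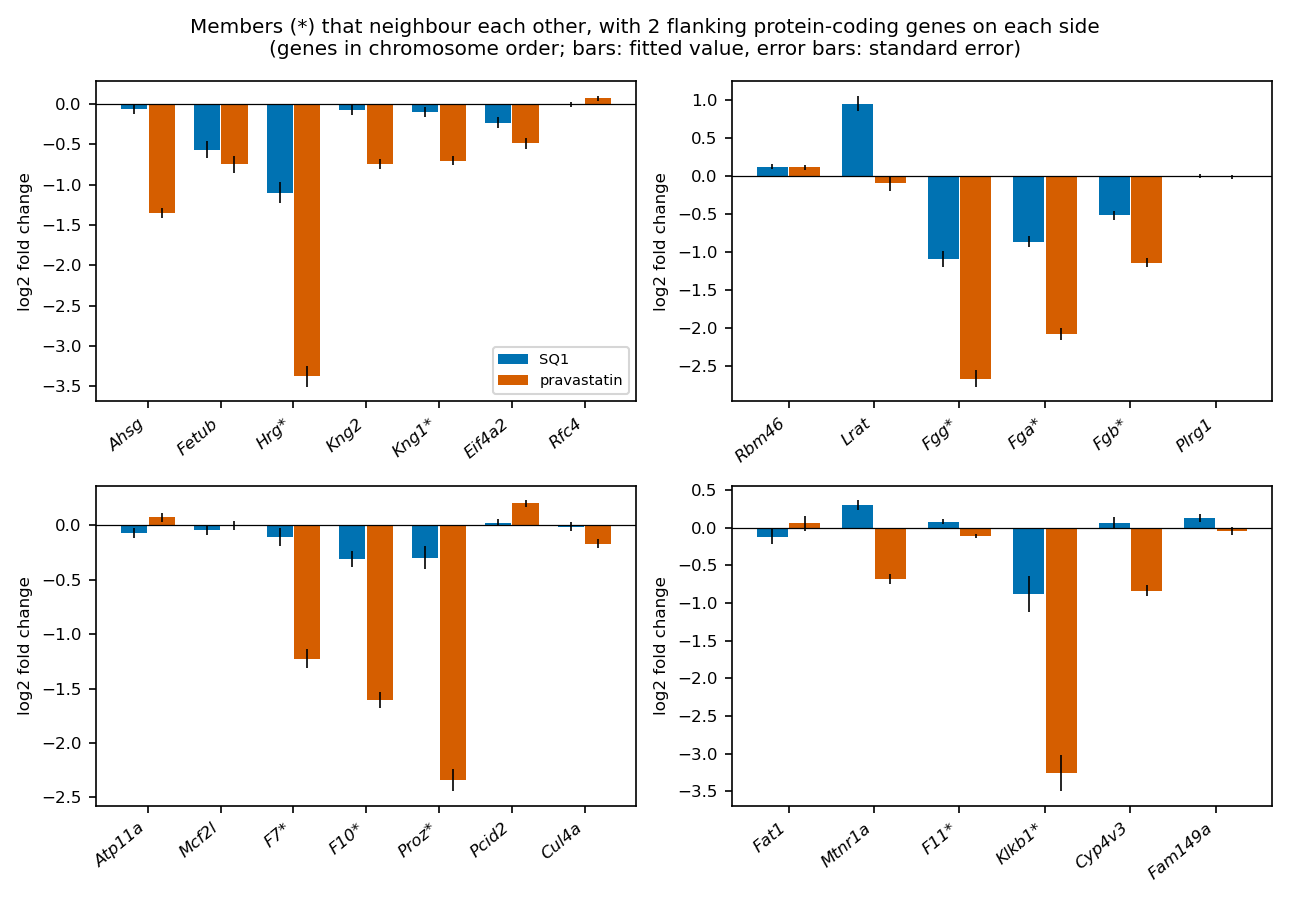
Fitted log2 fold change with its standard error (n = 8 arrays per drug) for 4 runs of neighbouring genes in chromosome order, members marked with an asterisk, SQ1 in blue and pravastatin in orange. The 3 fibrinogen genes fell together between flanking genes near or above 0, and Klkb1 fell next to F11, which stayed within 0.11 of 0 on either side and turned in sign with pravastatin after median centring.

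Promoter windows of 250 bases before the start were at hand for 26 of the 33 members (28 windows) and for 32851 windows in all. The motifs were searched on both strands as CAAAGTCCA for HNF4, TTGCNNAA for C/EBP and TTCNNNGAA for STAT. C/EBP was found in 7 of 28 windows against 9.56% of all windows, and STAT in 4 against 7.02%. HNF4 was in 0 against 0.384%. Windows with a C/EBP match belonged to Fga, Fgb, Plaur, F11, Klkb1, Hrg and F9, which include members that fell strongly, that rose and that hardly moved. These letter matches describe the windows only.

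The vitamin K-dependent members (F2, F7, F9, F10, Proc, Pros1 and Proz), grouped after their values were seen, gave a median of -0.96 with pravastatin, with 6 of 7 lower, and -0.25 with SQ1, with 4 of 7 lower. Of all genes, 35.8% were lower and 30.9% higher with pravastatin, and 16.5% were lower with SQ1. The other 25 tested members had medians of -1.21 and -0.43. Of the 8 genes for the vitamin K cycle and the secretion of factors, 7 fell and 1 rose with pravastatin, with a median of -0.59. Vkorc1, the reductase that warfarin blocks, fell by 0.88 ± 0.08, and Ggcx, the gamma-glutamyl carboxylase, by 0.50 ± 0.06 (adjusted p = 1.44e-07 and 1.26e-06). Lman1 and Mcfd2, the cargo receptor that carries factors V and VIII out of the endoplasmic reticulum, fell by 0.83 and 0.97 with pravastatin and by 0.37 and 0.36 with SQ1, and those SQ1 calls were lost with median centring. Nqo1, a quinone reductase, was the gene that rose, by 0.46 ± 0.06 with pravastatin and 0.31 ± 0.06 with SQ1. Furin and Vkorc1l1, both called lower, turned in sign with median centring, which left 5 lower.

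Of 24 further genes of coagulation and fibrinolysis, 21 were tested, and Vwf, Adamts13 and F2rl2 were not. With pravastatin 12 fell and 6 rose, and with SQ1 10 fell and 4 rose (8 and 4, and 4 and 3, with median centring). The rises lie near the shares of all genes, 30.9% with pravastatin and 15.7% with SQ1. Of all genes, 35.8% fell with pravastatin and 16.5% with SQ1. C4bp fell by 2.49 ± 0.10 and Apoh, beta-2-glycoprotein I, by 2.03 ± 0.11 with pravastatin (adjusted p = 4.90e-12 and 1.67e-10). Tfpi2, another Kunitz inhibitor, fell by 1.20 ± 0.07. Serpinb2, PAI-2, rose by 1.20 ± 0.12 with pravastatin and fell by 1.14 ± 0.12 with SQ1 (adjusted p = 1.10e-07 and 2.01e-06). Serpine2, protease nexin 1, rose by 1.14 ± 0.10 and 0.75 ± 0.10, and Serpina5, the protein C inhibitor, rose with SQ1 by 0.96 ± 0.06 and was at -0.05 ± 0.06 with pravastatin.

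Transcription factors with known binding at liver coagulation genes were read from the same fit. With pravastatin 8 of 14 fell and 4 rose (4 and 4 with median centring), and with SQ1 2 fell and 2 rose. Of all genes, 35.8% fell and 30.9% rose with pravastatin, and 16.5% and 15.7% with SQ1. The rises with pravastatin and both SQ1 counts lie near those shares. Nr1h4, the bile acid receptor FXR, fell by 2.005 ± 0.14, Hnf4a by 1.30 ± 0.09 and Foxa3 by 1.14 ± 0.06 with pravastatin (adjusted p = 2.71e-09, 4.30e-09 and 8.47e-11). Klf4 rose by 1.19 ± 0.08, Klf2 by 0.14 ± 0.04 and Cebpb by 0.50 ± 0.05, of which the call of Klf2 was lost with the slide as a block. With SQ1 Hnf4a was at -0.08 ± 0.09, Nr1h4 at 0.06 ± 0.14 and Klf4 at 0.06 ± 0.08, none past the test.

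Interleukin 6 drives the fibrinogen genes in the acute phase, and of its 12 listed genes 7 fell and 1 rose with each drug. Over all genes, 35.8% fell and 30.9% rose with pravastatin, and 16.5% fell and 15.7% rose with SQ1. Il6 itself fell by 0.76 ± 0.07 with SQ1 and was called higher, at 0.18 ± 0.07, with pravastatin (adjusted p = 3.59e-07 and 0.0237), a call lost with the slide as a block. Socs3, a feedback target of STAT3, fell by 0.50 ± 0.07 with SQ1 and was at 0.14 ± 0.07 with pravastatin, which did not pass. Of the other acute phase genes, Hp, haptoglobin, fell by 1.14 with pravastatin and 0.39 with SQ1, Saa1 by 0.71 and 0.44, and Orm1 by 0.39 and 0.72. Median centring gave 4 lower and 3 higher with pravastatin and 5 lower and 0 higher with SQ1.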

How the data were processed

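The deposited files hold spot intensity values of 16 two-colour arrays, read by the authors with Agilent Feature Extraction 11.0.1.1, per the file headers. They also hold the scanner software's log10 ratio and flags, and the authors' deposited series table holds log2 ratios, whose scale was found by setting them against the scanner's (correlations 0.742 to 0.999). The files give median and not mean signals, which were corrected with normexp (offset 50) and normalized by loess within arrays in limma 3.58.1 (R 4.3.3), with control and outlier spots at weight 0. Single-channel levels were also quantile-scaled between arrays (Aquantile). Of 39429 probes, 27234 were matched to a gene through RefSeq, and 25923 passed a filter of well above background in at least 4 treated channels of a drug or 8 control channels. The brightest probe stood for a gene. lmFit and eBayes fitted both drugs and a dye effect on all 16 arrays (13 residual degrees of freedom), two-sided, with Benjamini-Hochberg adjustment over the 15053 genes tested. The fit was tested on simulated data with 200 changed genes.

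Same-numbered arrays of the drugs share a control culture number in the arrays' names, and their deviations correlated at 0.22 to 0.72 in all 8 pairs. The best-matching pravastatin array had the same number for SQ1 replicates 4, 5 and 6. For SQ1 replicates 1, 2, 3, 7 and 8 it had another number, so the pairing is uncertain. The replicate number was used as a block in an alternative (block correlation 0.47). P-values rest on the spread between the 16 arrays, which the main fit took as independent. Arrays may share control cultures and do share slides, and the number of mice is not given. The number of cultures limits the precision. All members are described by role, with full values for up to the 4 largest changes of each role and shorter accounts of the rest. The members and lists were chosen with earlier results of these data known. Alternatives covered background correction, centring, the scanner's and the authors' ratios, the dim filter, probe choice, array weights, slide, scan day, replicate block, dye term, threshold and each array left out. Protein sequences were not used here. Some genes and motifs are not reported here.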

Additional observations from a re-analysis of the deposited data

Results flagged for a closer look

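In the values by array, 2 of 64 groups of 8 arrays had a sample far from the others by Dixon's criterion, which chance gives in about 1 of 20 groups. For F12, SQ1 replicate 1 was at -0.10 while the nearest of the other arrays was at 0.069. For F10, pravastatin replicate 5 was at -1.99 while the nearest of the others was at -1.66.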

How the results depend on the processing

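With pravastatin the members lower numbered 23 to 26 and those higher 3 or 4 over all alternatives, and SQ1 minus pravastatin gave 22 to 26 higher and 4 lower. With SQ1 the count was less settled. The 20 members lower became 9 with median centring, and the 2 higher became 0 with median centring, with the slide or the scan day as a block, and at an adjusted p of 0.01. It became 1 without the filter on dim probes, with the replicate block and on slide 2 alone. Leaving out 1 array at a time gave 0 to 2 higher and 18 to 21 lower with SQ1, 3 to 4 and 24 to 25 with pravastatin. The median of the members with SQ1 was -0.50 on slide 1 alone and -0.39 to -0.27 with 1 array left out. With pravastatin the median was -0.94 with median centring and -1.21 to -1.13 with 1 array left out. For SQ1 minus pravastatin it was 0.89 with the scanner software's log ratio and with the authors' series table, and 0.73 to 0.78 with 1 array left out. F11 with pravastatin reversed to 0.0499 with median centring (adjusted p = 0.687). The cause of these shifts was not tested. Over the 32 members and all alternatives, 885 of 960 SQ1 results kept their direction and side of the threshold, 67 lost the call and 8 gained one, and with pravastatin 935 of 960 kept them. F13b was called lower with SQ1 without pravastatin replicate 4 (-0.34, adjusted p = 0.0495) and on slide 1 alone (-0.65, adjusted p = 5.30e-04). The replicate block changed the calls of F13a1 (SQ1, 0.14, adjusted p = 0.0917) and Tfpi (SQ1 minus pravastatin, 0.14, adjusted p = 0.0495) and no other member's call. F13a1 was dim, so its values are limited by the signal over background.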
